A study of Homo sapiens with 8 samples.

Results

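The genes described here are 10 regulators and markers of epithelial-mesenchymal transition, chosen by name out of 20037 protein-coding genes. They are 7 genes of the mesenchymal side (ZEB1, ZEB2, SNAI1, SNAI2, TWIST1, VIM and CDH2) and 3 of the epithelial side (GRHL2, ESRP1 and OVOL1). For each gene, every peak that touched its RefSeq span or the 10 kb on either side was counted. The cells were HCT-116, a line from a human colorectal carcinoma, either control or knocked out for SETD3, the enzyme that methylates a histidine of actin. Chromatin was profiled by CUT&RUN, in which an antibody tethers a nuclease that cuts out the DNA around its target. One arm used an antibody against BRG1 (SMARCA4), the motor subunit of SWI/SNF chromatin remodellers, and the other an antibody against Flag-tagged wild type actin. Each arm had 1 control library, a pair of SETD3 knockout libraries called KO1 and KO2, and 1 IgG library of control cells as background. It is not stated in the labels if KO1 and KO2 came from different clones or cultures, from which promoter the Flag-actin was expressed, or whether the IgG cells of the Flag arm carried it (their title holds the word Empty).

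In epithelial-mesenchymal transition, polarised cells joined by E-cadherin loosen their junctions and take on a motile, fibroblast-like state. ZEB, SNAI and TWIST transcription factors drive the change, partly by repressing E-cadherin through E-box sequences, while GRHL2 and OVOL factors repress ZEB genes and ESRP1 maintains epithelial splicing. SWI/SNF remodellers move nucleosomes at promoters and enhancers, and actin is a subunit of these complexes.

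With 1 control library per antibody there is no estimate of spread among controls, so no comparison of control with knockout was tested and all values are per library. The lists were thresholded by the authors, so a gene with no peak is a gene outside the list, not a gene without the protein. The BRG1 lists held 53270 peaks in control, 23784 in KO1 and 32038 in KO2, and the Flag-actin lists 38902, 27249 and 35892. Between 32.7% and 70.5% of the peaks in a list overlapped an IgG peak of the same arm, with the highest shares in the BRG1 knockout lists. Counts below leave out such peaks unless stated. Read depth is not given by the lists. The smallest increment of signal was 4.38 in the BRG1 control, 11.5 in KO1 and 9.09 in KO2, and 21.5, 9.69 and 8.40 in the Flag-actin control, KO1 and KO2. This increment, the peak width and the IgG share all differ between control and knockout lists, and their part in the differences below was not tested. Peaks were also present at genes of other tissues: 3 of 3 neural (RBFOX3, SYT1 and the glial GFAP) and 2 of 3 liver markers had a BRG1 control peak, against 3 of 7 colorectal epithelial, 1 of 5 fibroblast and 1 of 4 immune markers. Over all protein-coding genes the share with such a peak was 61.8%. These counts take no account of window length, which was 596 kb for RBFOX3 and 608 kb for SYT1. For the colorectal markers it ran from 28.4 kb (CDX2) to 167 kb (LGR5). The colorectal markers VIL1 and KRT20 had no peak outside IgG in any antibody list. Peak presence is thus no check of the labelled cell type.

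The DNA nearest to the finding at the vimentin gene is shown first, because of the members in the promoter table VIM had the peak nearest to an annotated start, 210 bp from it. The table, from RefSeq on GRCh38, holds starts for 4 of the 10 members, ZEB1, ZEB2, VIM and CDH2. The first line is the start region of VIM-AS1, an antisense transcript inside VIM, at chr10:17229936-17230235 on the minus strand, and its 25 capitals (bases 276 to 300) lie under a Flag-actin KO2 peak. The second is the 250 bases before the VIM start at chr10:17227991-17228240, plus strand. The third is the ZEB1 start region with the most E-box matches, 2 in capitals, at chr10:31318966-31319215, plus strand. No ZEB1 start had a peak nearby. Of the 7 ZEB1 starts, the one at chr10:31318417 held 1 match and the remaining starts held none.
VIM-AS1: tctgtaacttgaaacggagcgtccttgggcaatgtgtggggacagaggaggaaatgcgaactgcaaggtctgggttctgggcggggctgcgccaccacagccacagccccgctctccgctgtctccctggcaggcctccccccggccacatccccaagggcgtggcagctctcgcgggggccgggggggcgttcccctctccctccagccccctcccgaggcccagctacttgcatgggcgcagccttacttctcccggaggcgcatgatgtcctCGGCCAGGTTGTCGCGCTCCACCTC
VIM: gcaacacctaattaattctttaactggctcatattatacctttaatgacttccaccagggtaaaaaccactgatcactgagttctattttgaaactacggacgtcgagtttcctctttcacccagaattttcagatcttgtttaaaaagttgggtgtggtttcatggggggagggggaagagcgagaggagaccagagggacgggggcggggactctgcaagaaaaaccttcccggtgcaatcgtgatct
ZEB1: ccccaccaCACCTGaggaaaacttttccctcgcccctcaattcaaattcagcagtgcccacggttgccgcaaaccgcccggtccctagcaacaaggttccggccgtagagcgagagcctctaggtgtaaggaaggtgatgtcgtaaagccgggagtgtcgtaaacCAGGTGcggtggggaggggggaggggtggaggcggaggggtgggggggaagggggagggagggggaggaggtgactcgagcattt
The E-box letters searched were CACCTG, read as CAGGTG on the other strand, and 17.5% of 34943 table promoters held them in the 250 bases before the start. The VIM window held none, nor a match to TGANTCA (the AP-1 motif, 6.59% of promoters) or AACNNGTT (a core of the grainyhead motif, 3.00%). These motifs read alike on both strands, and matches of different motifs were allowed to overlap. A match or its absence is a description of these letters and says nothing of a factor.

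Across the 10 genes, BRG1 peaks outside IgG numbered 23 in control, 10 in KO1 and 21 in KO2 (knockout mean 15.5 ± 7.78 SD, n = 2). With these peaks outside IgG, from lists of the deposited length, KO2 was close to the control and KO1 was not. With the BRG1 lists cut to equal length, the 23784 peaks of highest total signal, the numbers were 15, 10 and 12. KO1 and KO2 were then near each other and both below the control. Here and wherever equal length is named, the cut came before IgG-overlapping peaks were left out. The number of peaks outside IgG was therefore not made equal between lists. With IgG-overlapping peaks kept and no cut the numbers were 26, 20 and 28, with KO2 above the control. As deposited and outside IgG, KO1 held 43.5% and KO2 91.3% of the control number, while over the windows of all protein-coding genes the peaks fell from 32733 to 5655 (17.3%) and 11832 (36.1%). The order was the same without GRHL2: the other 9 genes held 12, 5 and 10 peaks. A BRG1 control peak was present at 7 of the 10 genes, where 61.8% of all protein-coding genes had one. In KO1 4 genes had a peak against a background of 20.2%, and in KO2 8 against 35.8%. Longer windows catch more peaks, so the genes were also read within their window class. Of the 5 genes with short windows (20 to 40 kb: SNAI1, SNAI2, TWIST1, VIM and OVOL1), 3 had a BRG1 peak in control, 0 in KO1 and 3 in KO2, against 49.6%, 11.3% and 25.2% of genes of that class. Of the 5 with long windows (80 to 300 kb: ZEB1, ZEB2, CDH2, GRHL2 and ESRP1), 4, 4 and 5 had one, against 76.8%, 33.1% and 50.5%.

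Flag-actin peaks numbered 10 in control, 7 in KO1 and 13 in KO2 (knockout mean 10.0 ± 4.24 SD, n = 2). The knockout libraries stood above and below the control. The difference between knockout mean and control, 0 peaks here, was 3 with the gene span alone and 3.5 with lists of equal length. Flag-actin peaks were present at 7 genes in control (background 48.3%), 4 in KO1 (32.4%) and 7 in KO2 (45.6%). Of the 5 short windows 3, 2 and 3 held one in control, KO1 and KO2 (class shares 43.6%, 20.4% and 33.1%), and of the 5 long windows 4, 2 and 4 (54.3%, 49.0% and 62.5%).

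**Figure D1:**
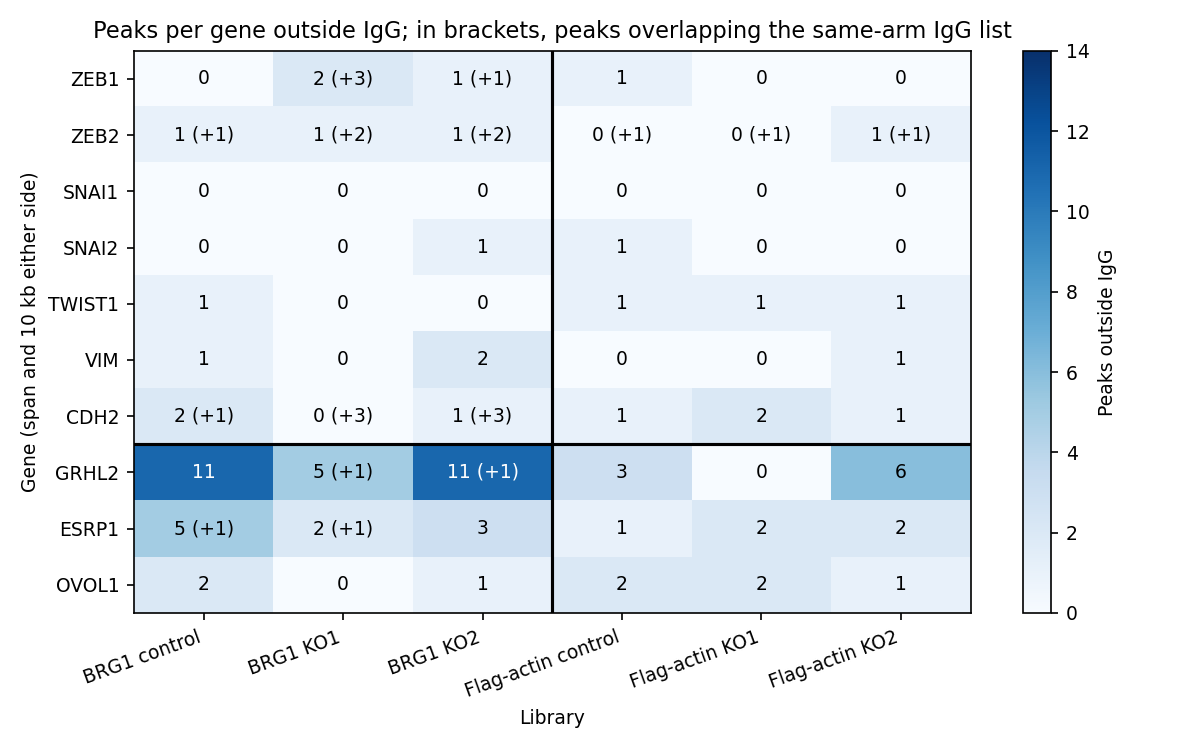
Grid of the 10 genes (vertical axis) by the 6 antibody libraries (horizontal axis), where shade and number give the peaks outside IgG and brackets the further peaks that overlap the IgG list of the same arm, 1 library per value. GRHL2 holds 11, 5 and 11 BRG1 peaks, and no other gene exceeds 5 in any list of that antibody.

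The sides of the programme differed in peak density in the BRG1 control. The 3 epithelial genes held 18 peaks, 5.53 per 100 kb of window, and the 7 mesenchymal genes held 5, 0.662 per 100 kb, around an average of 1.93 for all protein-coding genes. In KO1 the densities were 2.15 and 0.397 against 0.333 for all genes, and in KO2 4.61 and 0.794 against 0.697. Epithelial density was therefore the higher in every BRG1 list. For Flag-actin it was 1.84 against 0.530 in control (all genes 1.57), 1.23 against 0.397 in KO1 (0.600) and 2.77 against 0.530 in KO2 (1.04). No test was made of these densities, and GRHL2 and ESRP1 lie in surroundings with more BRG1 peaks than average: the 11 other protein-coding genes within 1 Mb of GRHL2 held 2.77 control peaks per 100 kb and the 16 near ESRP1 held 5.02.

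GRHL2, a grainyhead transcription factor that activates E-cadherin and represses ZEB1, lies at chr8:101492439-101681200. It carried 11 BRG1 peaks in control, 5 in KO1 and 11 in KO2. At least 10 control peaks were found at 1.56% of protein-coding genes, and at 3.41% of those with windows of 80 to 300 kb like its own. Among 1573 genes with 5 or more control peaks, 20 (1.27%) had as many or more in KO2, and GRHL2 was one of these. In KO1 4 of the 1573 genes (0.254%) had as many, and GRHL2 was not among them. These genes were picked for a high control count and the knockout lists are shorter, which lowers both shares by construction. The shares are therefore no measure of how unusual GRHL2 is. Within its window class 2.79% of genes had as many peaks or more in control, 0.620% in KO1 and 0.266% in KO2.

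The GRHL2 control peaks were of middle to high rank. Their total signal stood between the 35.4th and 82.1st percentile of the control list. The highest, at chr8:101492031-101492590, covered the lower-coordinate end of the gene over 560 bp with a maximum of 18 signal increments. KO2 held a peak of 220 bp at the same end (chr8:101492291-101492510, 59.6th percentile of its list), and KO1 held none there. Ranks come from lists of different length and are not compared between lists.

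Inside GRHL2 a pair of sites was present in all 3 BRG1 lists. The first spans chr8:101538241-101538650 in control, with peaks at chr8:101538271-101538490 in KO1 and chr8:101538261-101538360 in KO2. The second lies at chr8:101635811-101636190 in control, chr8:101635851-101636000 in KO1 and chr8:101635721-101635880 in KO2. The control peaks lie 45.8 kb from the lower end and 45.0 kb from the upper end of the gene, and the RefSeq table used gives no exons or introns to place them further. Of the 11 control peaks, 2 overlapped a KO1 peak and 6 a KO2 peak. Over all BRG1 control peaks outside IgG these shares were 7.42% and 14.1%, and over those in the percentile range of the GRHL2 peaks 9.42% and 19.0%. The 2 peaks shared with KO1 were shared with KO2 as well, which held for 3.99% of all control peaks and 4.5% of those in that range. Peaks were also narrower in the knockouts, so that the DNA they covered at GRHL2 was 3400 bp in control, 570 bp in KO1 and 1410 bp in KO2. Of the 11 KO2 peaks 1, at chr8:101603961-101604060, coincided with a peak of the Flag arm IgG list. When all BRG1 lists were shortened to equal length before IgG-overlapping peaks were left out, the counts became 9, 5 and 6. That moves KO2 below the control.

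Flag-actin peaks at GRHL2 numbered 3 in control, 0 in KO1 and 6 in KO2. No place was shared by any pair of these lists. The control peak at chr8:101607601-101607850 overlapped a BRG1 control peak (chr8:101607711-101607920) by 140 bp. The 6 KO2 peaks ran from chr8:101493481-101493750 near the lower end to chr8:101685891-101686080 beyond the upper end. The window there also covers part of the neighbour NCALD, in which the control peak chr8:101689321-101689650 lay. With the gene span alone the Flag-actin counts at GRHL2 were 2, 0 and 5.

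**Figure D2:**
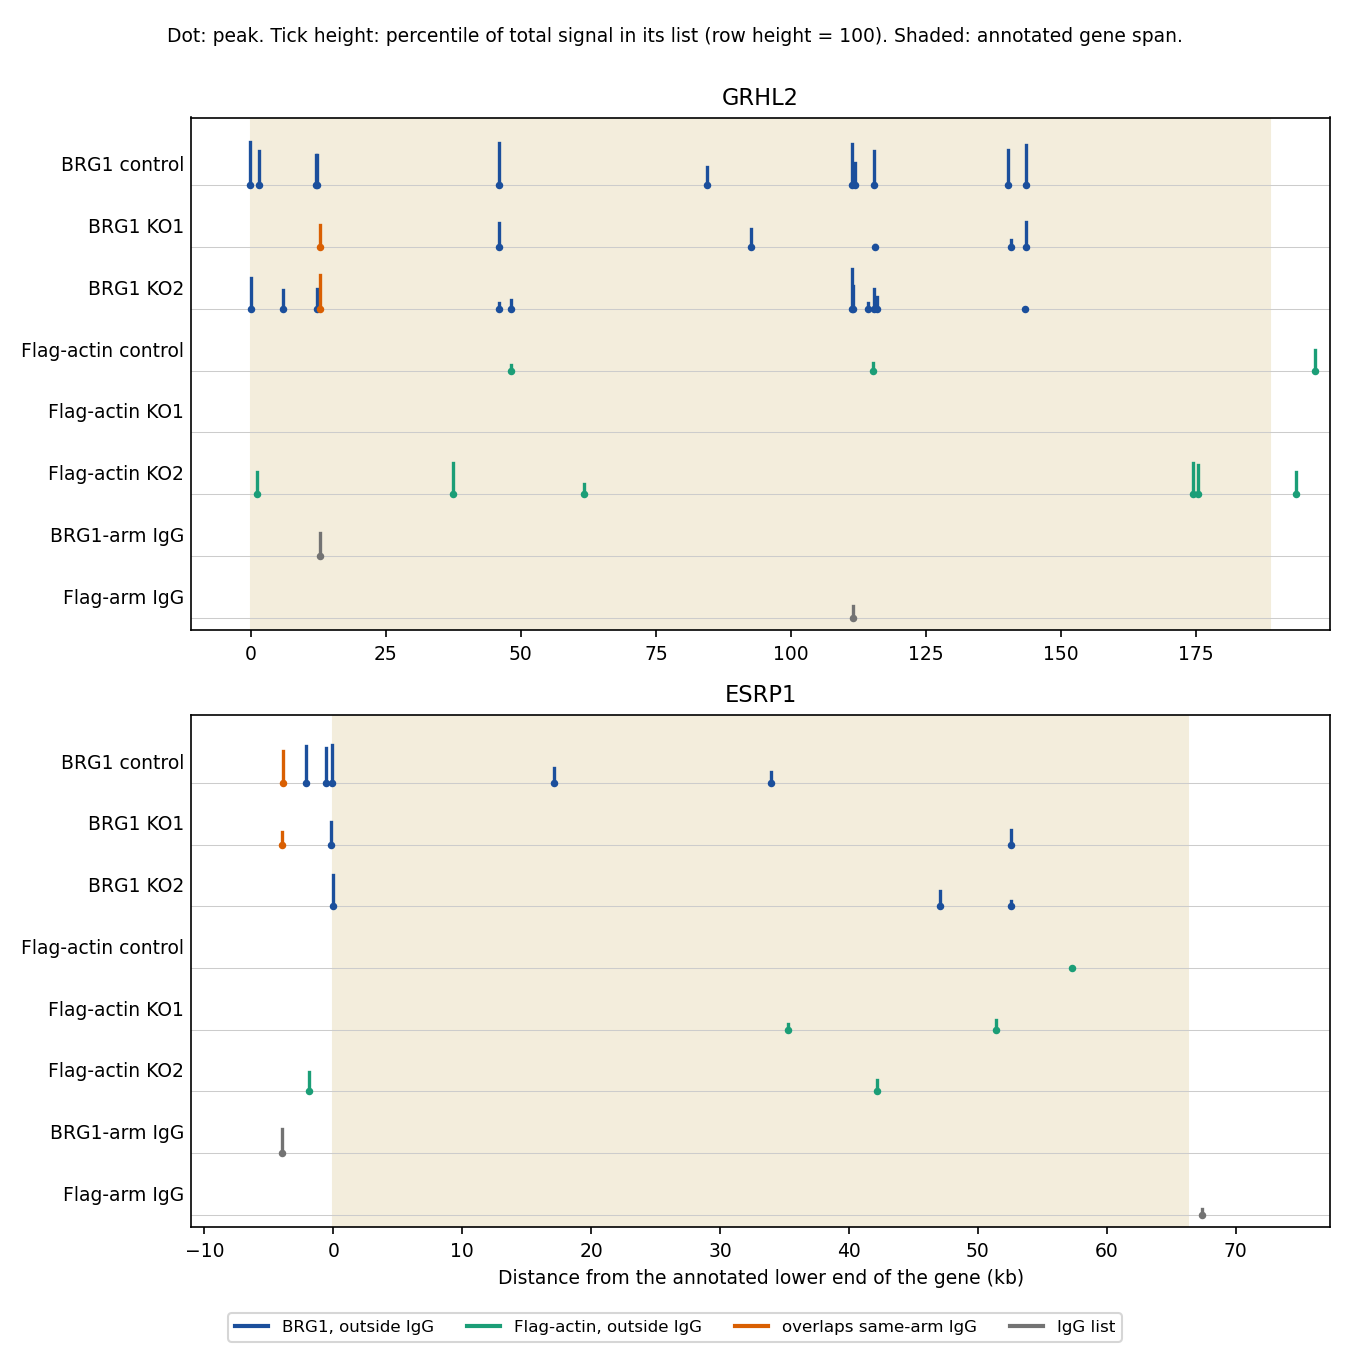
Positions of peaks along GRHL2 and ESRP1 (horizontal axis, distance from the lower-coordinate end of the gene, kb) in each of the 8 lists (vertical axis), with each dot a peak, tick height its percentile of total signal within its list, orange marking overlap with the IgG list of its arm and shading the gene. GRHL2 shows BRG1 control peaks from its lower end to 45.0 kb before its upper end, and ESRP1 shows its 3 highest at the lower end.

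ESRP1, an RNA-binding protein that keeps epithelial splice forms such as those of CD44 and FGFR2, lies at chr8:94641174-94707466. BRG1 peaks numbered 5 in control, 2 in KO1 and 3 in KO2, so both knockouts were below the control. Fewer peaks in both knockouts than in control occurred at 4 of the 10 genes (TWIST1, CDH2, ESRP1 and OVOL1) and at 47.9% of all genes, or 39.3% with short and 58.6% with long windows. At least 5 control peaks were found at 7.85% of genes, and at 14.6% in the window class of ESRP1. Its 3 highest control peaks were grouped around the lower end, at chr8:94638841-94639250, chr8:94640391-94640770 and chr8:94640811-94641280, with percentiles of 70.2, 66.6 and 72.0. The last of these was the only ESRP1 site present in all 3 BRG1 lists, with KO1 at chr8:94640881-94641110 and KO2 at chr8:94640971-94641320. KO1 and KO2 also shared a site that the control list lacked, at chr8:94693741-94693810 and chr8:94693731-94693830.

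At ESRP1 Flag-actin gave 1 peak in control, 2 in KO1 and 2 in KO2. Higher counts in both knockouts occurred at this gene alone of the 10, and at 6.62% of all genes, or 11.8% of those in its window class. The 5 peaks lay at 5 different places. The control peak, chr8:94698401-94698520, stood at the 0.409th percentile, the edge of that list.

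OVOL1, a zinc-finger repressor of ZEB1 and other mesenchymal genes, lies at chr11:65787063-65797214. BRG1 gave 2 peaks in control, none in KO1 and 1 in KO2. The control peaks were inside the gene, at chr11:65791761-65791910 and chr11:65792551-65792840, and the KO2 peak was outside it at chr11:65778481-65778570, in the neighbour AP5B1. The Flag-actin counts were 2, 2 and 1. The Flag-actin control peaks lay above the gene (chr11:65797441-65797810 and chr11:65801471-65801780) and all knockout peaks inside it, so that with the gene span alone the counts rest on the knockouts only.

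ZEB1, a zinc-finger repressor of E-cadherin and of the miR-200 genes, lies at chr10:31318417-31529804. It had no BRG1 peak in control, 2 in KO1 and 1 in KO2. A peak in both knockouts with none in control occurred at this gene alone of the 10, and at 0.868% of all genes, or 1.40% of those in its window class. The 3 peaks were at different places. Both KO1 peaks were 30 bp wide (chr10:31348781-31348810 and chr10:31393171-31393200), and the KO2 peak was at chr10:31468291-31468440. With peaks of up to 50 bp left out, ZEB1 no longer met this rule and no gene of the 10 did. Narrow peaks of this kind overlapped an IgG peak of their arm in 92.4% of cases in the KO1 list, and ZEB1 had 3 peaks of 30 bp in the BRG1 arm IgG list. Flag-actin gave 1 peak in control, at chr10:31326251-31326430, and none in either knockout.

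ZEB2, the paralogue of ZEB1 and also a repressor of E-cadherin, lies at chr2:144384081-144520119. BRG1 gave 1 peak in each list, and with GRHL2 and ESRP1 it was one of 3 genes with a peak in all 3 lists (background 12.3%, or 21.8% in windows of 80 to 300 kb, the class of all 3). No place was shared: the peaks lay at chr2:144417171-144417370 in control, chr2:144448891-144448960 in KO1 and chr2:144520811-144520900 in KO2, the last 692 bp from the annotated start. They ranked low, with percentiles of 1.89, 7.48 and 12.1 in their lists. With lists of equal length the ZEB2 counts were 0, 1 and 0. Flag-actin gave a single peak, in KO2, at chr2:144518451-144518570. A peak at or around chr2:144509341-144509380 was present in all 8 lists, both IgG lists included, and was not counted.

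**Figure D3:**
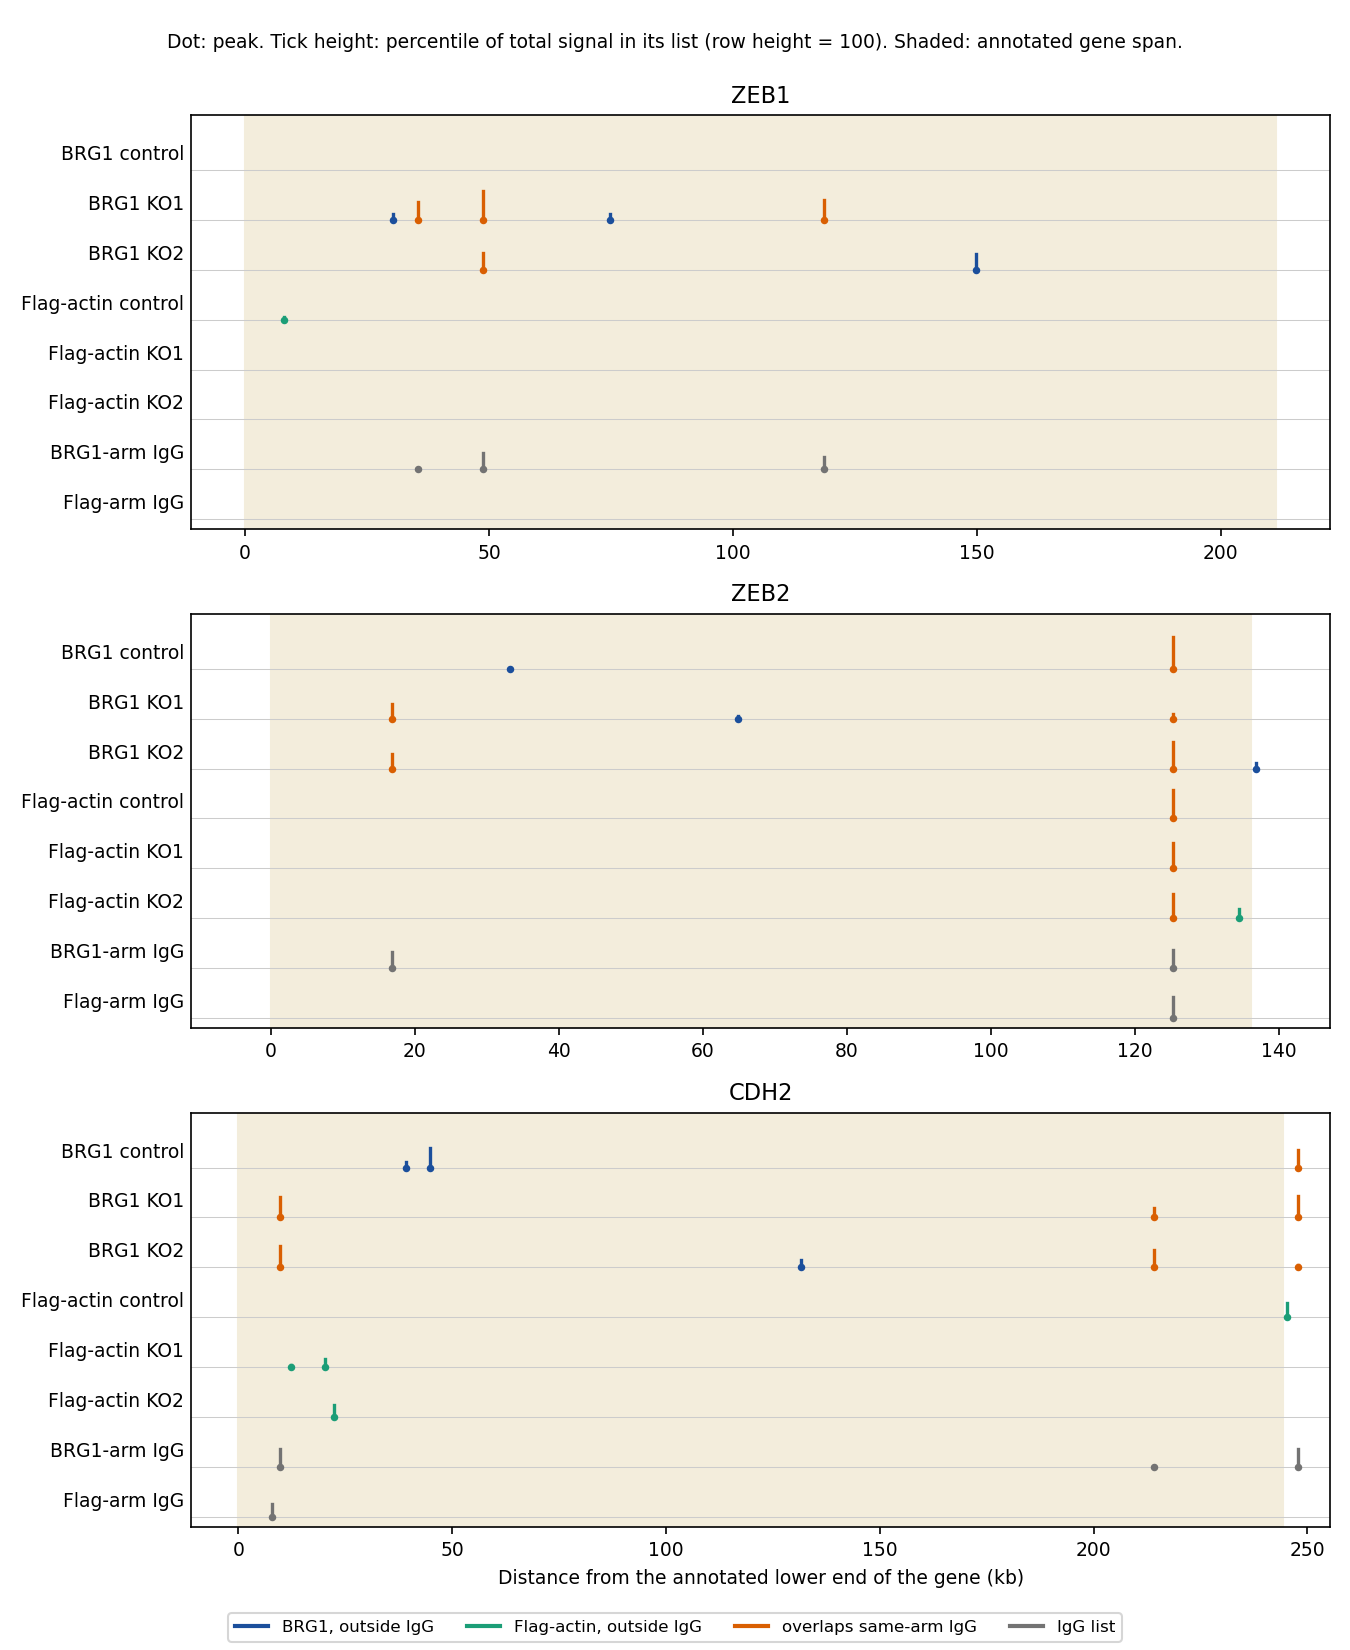
Peaks along the 3 long mesenchymal genes ZEB1, ZEB2 and CDH2 (horizontal axis, distance from the lower-coordinate end, kb) in the 8 lists (vertical axis), with each dot a peak, tick height its percentile of total signal within its list, orange marking overlap with the IgG list of its arm and shading the gene. The antibody lists hold few peaks outside IgG, none of them at the same place in 2 lists, and the BRG1 arm IgG list holds peaks in all 3 genes.

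SNAI1 (Snail), a zinc-finger repressor of E-cadherin, lies at chr20:49982980-49988886. Its window held no peak in any of the 8 lists, before or after IgG removal. No BRG1 peak outside IgG in any of the 3 lists was the state of 30.9% of genes, and of 43.4% with windows of 20 to 40 kb. For Flag-actin the shares were 30.5% and 40.5%.

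SNAI2 (Slug), its paralogue, lies at chr8:48917598-48921429. BRG1 gave 1 peak, in KO2 at chr8:48923511-48923680, beyond the upper end of the gene. Flag-actin gave 1 peak, in control at chr8:48920181-48920450, inside the gene. Together with ZEB1 it formed the 2 genes with a Flag-actin peak in control and in neither knockout, a pattern of 12.6% of all genes, 16.2% of short windows like that of SNAI2 and 7.82% of long ones like that of ZEB1.

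TWIST1, a basic helix-loop-helix factor of mesoderm and of invasive carcinoma, lies at chr7:19113047-19117636. It was the only one of the 10 genes with a BRG1 peak in control and in neither knockout, which 26.2% of all genes and 26.1% of its window class showed. That peak, chr7:19118761-19118820, was 60 bp wide. All 3 Flag-actin lists held a peak of 30 bp inside it, at chr7:19118791-19118820. This was the only Flag-actin site at the 10 genes that all 3 lists shared, out of 28 merged sites. Neither IgG list held it. Of all Flag-actin peaks up to 50 bp wide, 90.2% in control, 82.1% in KO1 and 73.6% in KO2 overlapped a peak of the IgG list of their arm.

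VIM encodes vimentin, the intermediate filament of mesenchymal cells, and lies at chr10:17228241-17237593. BRG1 gave 1 peak in control, none in KO1 and 2 in KO2. The control peak (chr10:17230501-17230910) and a KO2 peak (chr10:17230481-17230670) overlapped. The other KO2 peak, chr10:17228451-17228720, began 210 bp after the annotated start, which follows directly on the VIM sequence printed above. Flag-actin gave 1 peak, in KO2 at chr10:17229761-17229960, which reached the VIM-AS1 start region over the 25 bases in capitals. At VIM the knockouts thus differed from each other by as much as 2 peaks, and neither antibody had a VIM peak in KO1.

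CDH2 encodes N-cadherin, the adhesion molecule that replaces E-cadherin in the transition, and lies at chr18:27932879-28177130. BRG1 gave 2 peaks in control (chr18:27971901-27972030 and chr18:27977661-27977780), none in KO1 and 1 in KO2 (chr18:28064421-28064530). KO1 had 3 further peaks here, all of which overlapped IgG, and with such peaks kept the counts were 3, 3 and 4. Flag-actin gave 1, 2 and 1. Its control peak, chr18:28178081-28178280, lay 951 bp before the annotated start, and the knockout peaks lay far inside the gene towards its lower end. A Flag-actin peak in all 3 lists was found at TWIST1, CDH2, ESRP1 and OVOL1, 4 of the 10 genes, where 16.0% of all genes had one, or 8.02% with short windows (TWIST1, OVOL1) and 26.3% with long ones (CDH2, ESRP1).

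**Figure D4:**
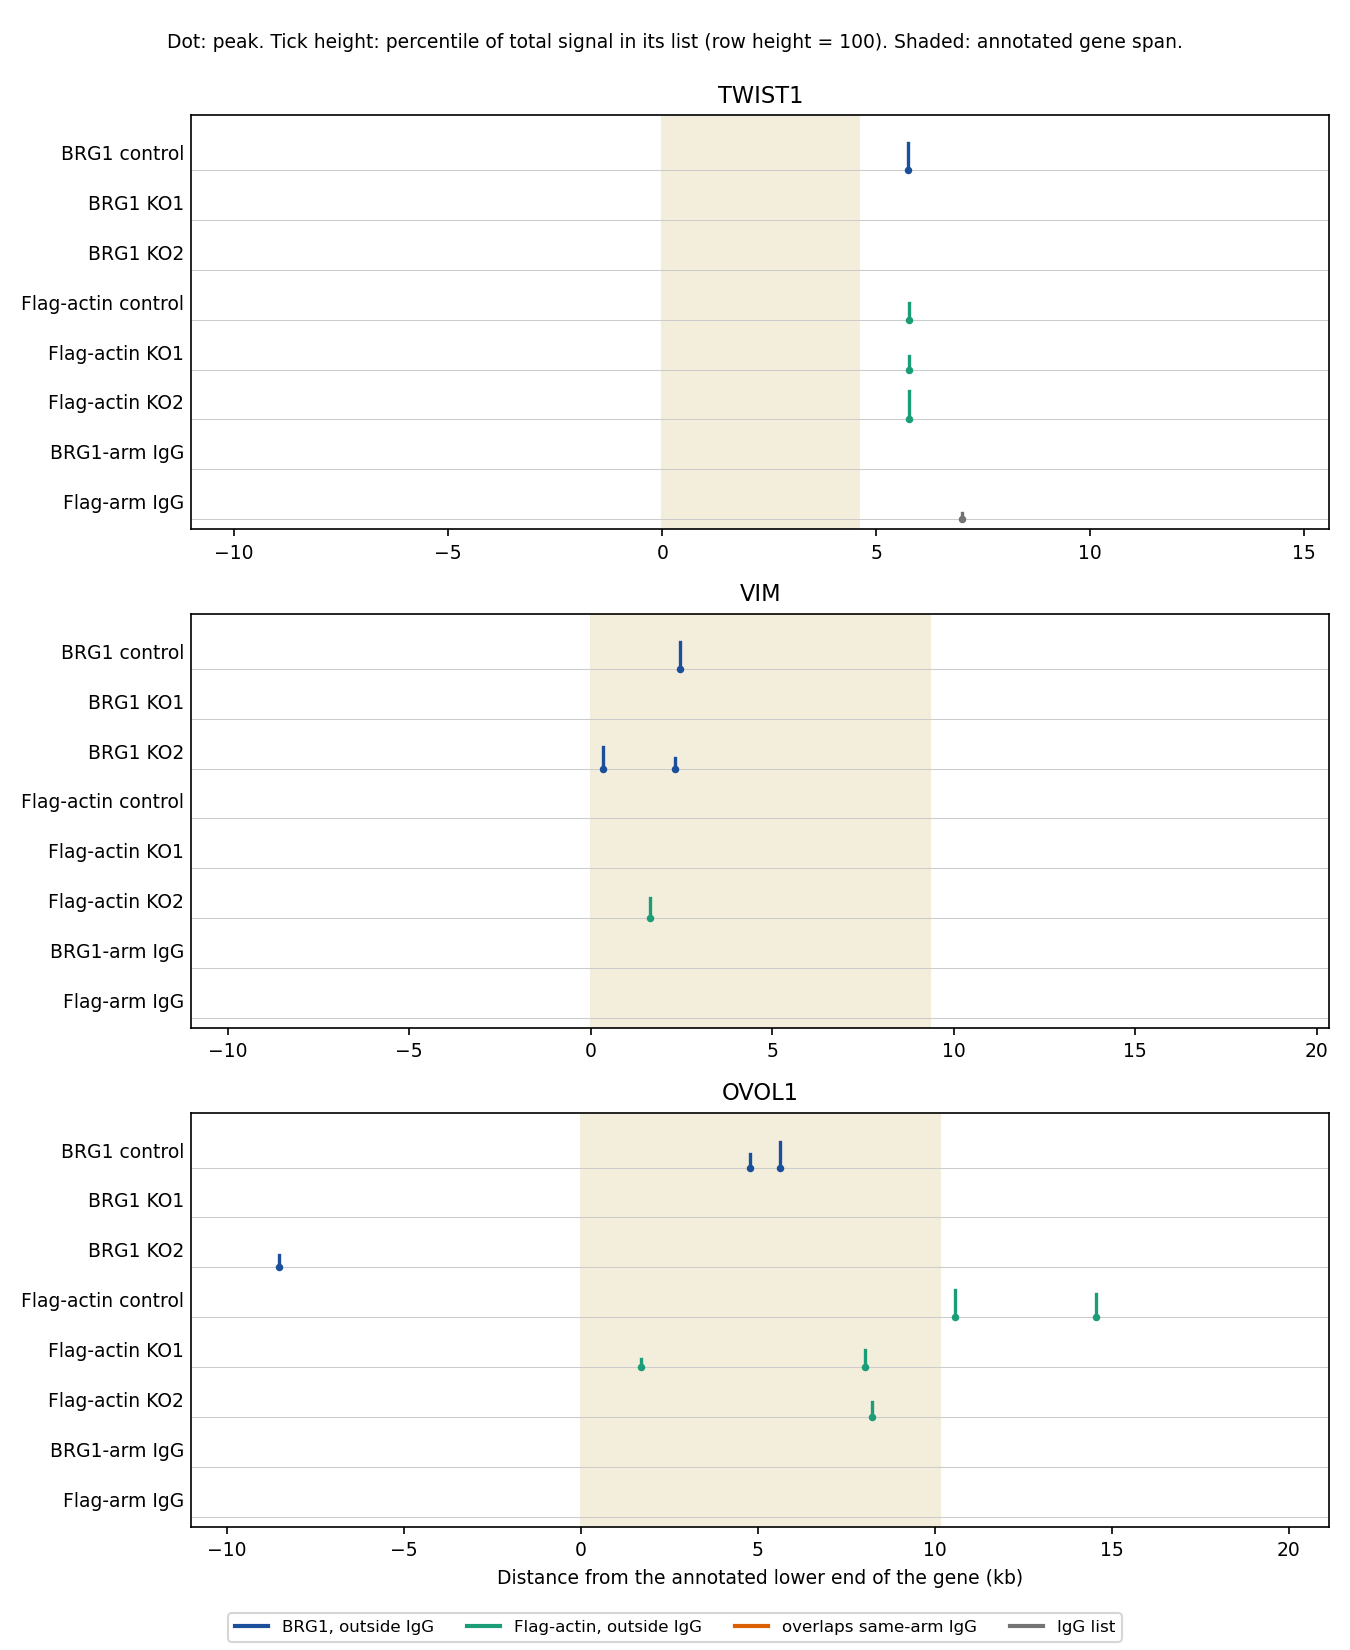
Peaks along the short genes TWIST1, VIM and OVOL1 (horizontal axis, distance from the lower-coordinate end, kb) in the 8 lists (vertical axis), with each dot a peak, tick height its percentile of total signal within its list and shading the gene. At TWIST1 the BRG1 control and the 3 Flag-actin lists hold a peak at the same place.

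Most places were held by a single list. The BRG1 peaks of the 10 genes merged into 42 sites, of which 33 were in 1 list and 3 in all 3 lists, all of these at GRHL2 and ESRP1. Of the 28 Flag-actin sites 27 were in 1 list. Of the 23 BRG1 control peaks 3 (13.0%) overlapped a KO1 peak, 8 (34.8%) a KO2 peak and 15 (65.2%) neither. Over all BRG1 control peaks outside IgG these shares were 7.42%, 14.1% and 82.5%. GRHL2 held 2 of the 3 and 6 of the 8. Of the 10 Flag-actin control peaks 1 overlapped a peak in each knockout, at TWIST1. Over all Flag-actin control peaks outside IgG 4.06% overlapped a KO1 peak, 6.54% a KO2 peak and 2.36% both. In control cells BRG1 and Flag-actin peaks outside IgG overlapped at TWIST1 and at GRHL2, and in the knockouts at none of the 10 genes. It was not computed how often BRG1 and Flag-actin peaks overlap, or sites fall in 1 list, over all genes. Outside IgG the BRG1 lists held 34689 peaks in control, 7012 in KO1 and 13220 in KO2. The part of list length in these overlaps was not tested.

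**Figure D5:**
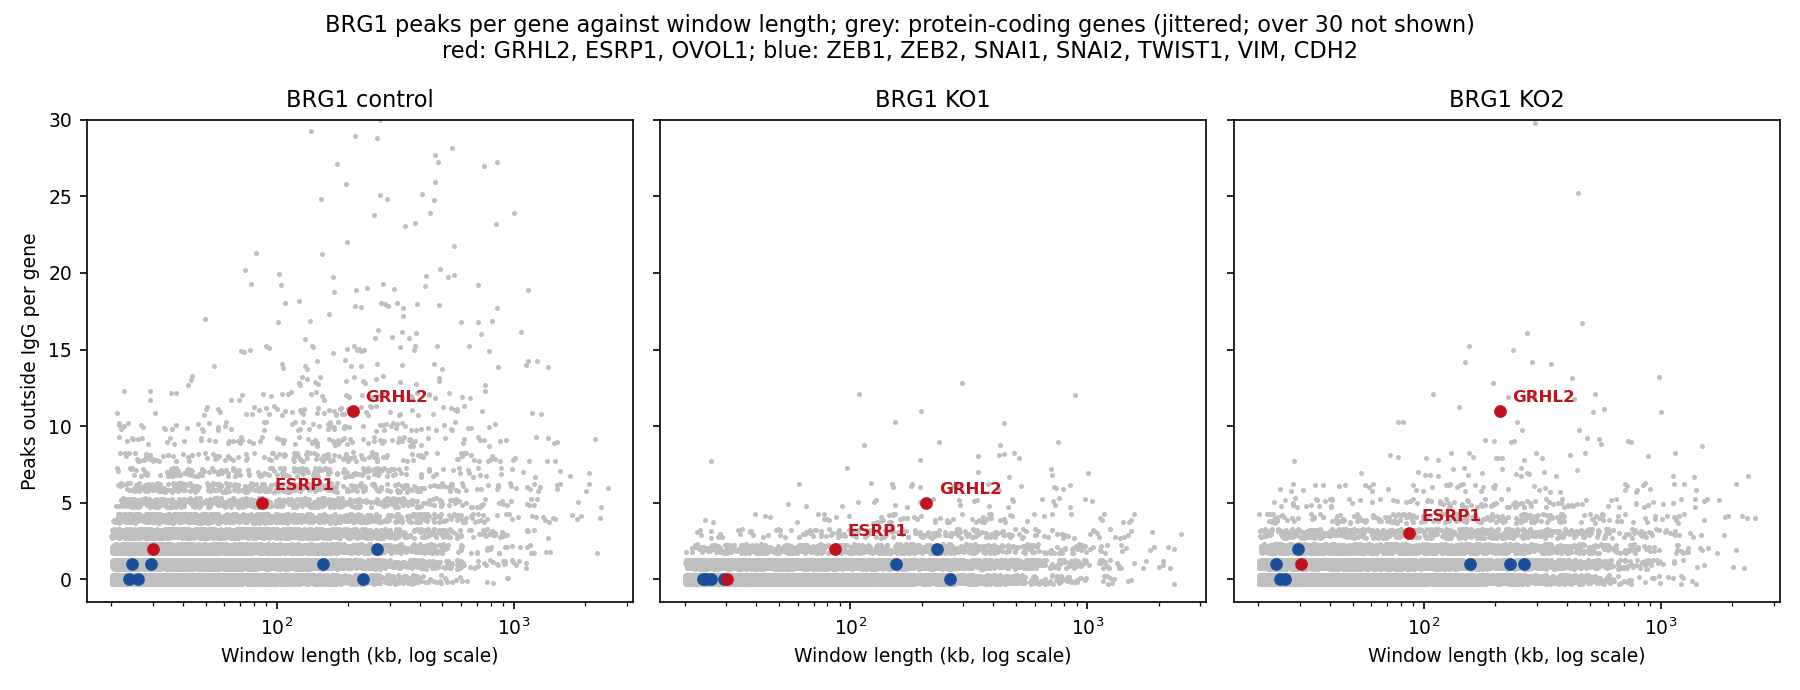
Number of BRG1 peaks outside IgG per gene (vertical axis) against window length (horizontal axis, kb, log scale) for protein-coding genes (grey, jittered, genes over 30 not shown) and the 10 genes (red epithelial side, blue mesenchymal side), in control, KO1 and KO2. GRHL2, with 11, 5 and 11 peaks, lies in the upper part of its window length in each panel, and the mesenchymal genes lie at 0 to 2.

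The 6-list patterns of GRHL2 and ESRP1, the genes with the most BRG1 control peaks, were set beside those of genes of like window length, by the distance between log2 (peak number + 1) values over the 6 antibody lists. Of 454 genes the nearest to GRHL2 were OLA1 (distance 1.86), ATP9A (2.16) and MAP3K13 (2.20). OLA1 held 7, 5 and 6 BRG1 peaks and 1, 0 and 2 Flag-actin peaks. Of 1120 genes the nearest to ESRP1 were PLA2G6 (1.23), CYSTM1 (1.26) and PTPN1 (1.38). PLA2G6 held 6, 1 and 4 BRG1 peaks and 2, 1 and 1 Flag-actin peaks.

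Other genes of the programme were taken as lists, 16 mesenchymal and 18 epithelial. A BRG1 peak was present at 13, 5 and 8 of the 16 mesenchymal genes in control, KO1 and KO2, with 31, 5 and 9 peaks. At the 18 epithelial genes it was present at 13, 4 and 8, with 49, 4 and 16 peaks. Over all protein-coding genes the shares with a peak were 61.8%, 20.2% and 35.8%. These counts take no account of window length, which ran from 21.9 kb (GSC) to 434 kb (TCF4). The median gene of the mesenchymal list held 2, 0 and 0.5 peaks, that of the epithelial list 2, 0 and 0, and that of all protein-coding genes 1, 0 and 0. A control peak with none in either knockout was found at 4 genes of each list (background 26.2%): PRRX1, MMP2, MMP9 and ITGA5 of the mesenchymal list and GRHL3, RAB25, CLDN7 and CRB3 of the epithelial list, named after their values were seen. A peak in both knockouts with none in control was found at no gene of either list (0.868%). For Flag-actin a peak was present at 11, 10 and 9 mesenchymal genes and at 12, 8 and 12 epithelial genes. Over all protein-coding genes the shares were 48.3%, 32.4% and 45.6%. A Flag-actin control peak with none in either knockout was found at 2 mesenchymal and 3 epithelial list genes (background 12.6%). A Flag-actin peak in both knockouts with none in control was found at none of the 10 genes, at 5.19% of all genes, at 1 mesenchymal list gene (CDH11) and at 3 epithelial list genes (OVOL2, RAB25 and ELF3), also named after their values were seen.

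On the epithelial list CDH1, which encodes E-cadherin, held 7 BRG1 peaks in control, 0 in KO1 and 2 in KO2. ELF3, an epithelial ETS factor, held 10, 1 and 3. GRHL1, a paralogue of GRHL2, held 2, 0 and 3, with KO2 above the control. The protease gene ST14 held 4, 0 and 2 and the ETS factor gene EHF 7, 0 and 1.

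On the mesenchymal list FN1, which encodes fibronectin, held 2, 0 and 1 BRG1 peaks, SNAI3 1, 1 and 0, TCF4 3, 1 and 1, and the calcium-binding protein gene S100A4 5, 0 and 2. For Flag-actin FOXC2 held 5, 1 and 0 peaks, TWIST2 4, 3 and 0, LEF1 4, 3 and 2, and the gelatinase gene MMP9 1, 0 and 1. The tight junction gene TJP1 held 1, 2 and 1 Flag-actin peaks, CDH1 1, 0 and 1, ST14 5, 0 and 1, and the pioneer factor gene FOXA1 4, 0 and 1.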

How the data were processed

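CUT&RUN was performed on 8 libraries of HCT-116 cells. The authors deposited 1 peak list per library with the total and the maximum signal of each peak, in the layout of SEACR per the file contents. The scaling of that signal, its aligner settings and its depth are not given in the sources used. Per the submitters' processing notes the build was hg38 and the tools, listed without roles, included SEACR and MACS2, bedtools 2.30.0 and deepTools, BWA and SAMtools, FastQC 0.12.0 and Trim Galore 0.4.5. List names carry the word stringent and 0.01 (antibody) or 0.005 (IgG).

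Only peaks of chromosomes 1 to 22, X and Y entered the counts. Gene spans came from RefSeq (GRCh38). A peak was assigned to every gene whose span, widened by 10 kb, it touched, and was called outside IgG when it shared no base with the IgG list of its arm. Peaks of an antibody's 3 lists that shared at least 1 bp were merged into sites, and a peak shared by lists is one with such an overlap. Percentiles rank total signal within a list. Python 3.11.15, numpy 2.4.6 and pandas 2.3.3 were used, and the interval code was tested on simulated data against bedtools 2.31.1. All 10 genes are named. Of the other programme genes with a control peak and at least 1 knockout peak, the 4 with the highest ranking control peak per list and antibody are named, with ties kept. Members and lists were chosen with earlier results of these data known.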

Additional observations from a re-analysis of the deposited data

Results flagged for a closer look

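At 2 genes the peak counts of the antibodies differed from control in opposite directions in both knockout libraries. At ZEB1 the knockout mean minus the control was 1.5 BRG1 peaks and -1 Flag-actin peaks. At ESRP1 it was -2.5 BRG1 peaks and 1 Flag-actin peak. The difference between antibodies was not tested, since each has 1 control library, and the counts are small. The share of all genes with this pattern was not computed. No Flag-actin peak at either gene shared its place with a peak of another Flag-actin list. The single Flag-actin control peaks stood low in their list, at the 6.53rd percentile at ZEB1 and the 0.409th at ESRP1. With lists of equal length the ZEB1 Flag-actin difference was 0. With peaks of up to 50 bp left out, ZEB1 had no BRG1 peak in KO1.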

How the results depend on the processing

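No paired analysis was possible because the results come from no test and the control has 1 library per antibody. The summed difference between knockout mean and control was -7.5 BRG1 peaks and 0 Flag-actin peaks. The BRG1 sum was -2 with IgG-overlapping peaks kept and -4 with lists of equal length. The Flag-actin sum was 3 with the gene span alone and 3.5 with lists of equal length. Lists were made equal before IgG-overlapping peaks were left out, so the peaks outside IgG were not equal in number. With windows of 50 kb either side the BRG1 sum was -20, BRG1 loss in both knockouts was found at 2 genes (1 in the reported setting) and gain in both at 0 (1 reported), Flag-actin loss at 1 (2 reported) and gain at 1 (0 reported). BRG1 gain was 0 with peaks wider than 50 bp only. Flag-actin gain was 2 with the gene span alone and 1 with lists of equal length, where Flag-actin loss was 0. Leaving out 1 knockout library gave sums between -13 (without KO2) and -2 (without KO1) for BRG1 and between -3 and 3 for Flag-actin. BRG1 loss was then found at 1 to 4 genes (4 without KO2), BRG1 gain at 1 to 2 (2 without KO1) and Flag-actin gain at 0 to 2 (2 without KO1). Such loss and gain rest on a single knockout library, so the shares of all genes given above for both knockouts do not apply to them. Shares of all genes were not computed for the changed settings. Single genes changed sign at SNAI2 (BRG1, -0.5 with 50 kb windows) and CDH2 (BRG1, 0.5 with IgG-overlapping peaks kept). For Flag-actin the sign changed at OVOL1 (1.5 with the gene span alone) and ZEB2 (-0.5 where IgG overlap had to cover at least 50% of the peak). Apart from the window and list definitions themselves, the cause was not tested. Leaving out GRHL2, chosen after seeing the data, gave sums of -4.5 and 0. Depth is unknown for every library, so an absent peak sets no upper limit on binding.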

Other observations

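The miR-200 microRNAs, which repress ZEB1 and ZEB2 messages and are themselves repressed by ZEB1, lie at a pair of loci that were looked at after the values of the 10 genes were seen. Their mature sequences, from RefSeq on GRCh38, fall into 2 seed classes, shown because the seed (bases 2 to 8, capitals) is the part that pairs with ZEB messages.
hsa-miR-200b-3p: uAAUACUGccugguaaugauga
hsa-miR-200c-3p: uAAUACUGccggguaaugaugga
hsa-miR-429: uAAUACUGucugguaaaaccgu
hsa-miR-200a-3p: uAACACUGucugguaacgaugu
hsa-miR-141-3p: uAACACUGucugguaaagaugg
Each locus encodes members of both seed classes. The window of MIR200C and MIR141 (hairpins at chr12:6963699-6964191) held 3 BRG1 peaks in control and none in either knockout, and 2 Flag-actin peaks in control and none in either knockout. Its highest BRG1 peak, chr12:6962991-6963270, stood at the 76.0th percentile of the control list and ended 429 bp from the hairpins. The Flag-actin control peak chr12:6963431-6963690 ended 9 bp from them and stood at the 2.53rd percentile of its list. The BRG1 control peak chr12:6961141-6961310 and the Flag-actin control peak chr12:6956121-6956500 lay in the neighbouring gene PTPN6. The window of MIR200B, MIR200A and MIR429 (chr1:1167104-1169087) held 2 BRG1 peaks in control and none in either knockout, and 4, 1 and 3 Flag-actin peaks. A Flag-actin control peak at chr1:1168134-1168433 lay among the hairpins, at the 13.9th percentile of its list. The Flag-actin control peaks chr1:1173904-1174273 and chr1:1176114-1176363 lay in the neighbouring gene TTLL10. No IgG list had a peak in either window. A control peak with none in either knockout was found at 26.1% of protein-coding genes with windows of 20 to 40 kb for BRG1 and at 16.2% for Flag-actin.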
